A study of Homo sapiens with 22 samples.

Results

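FOXA2 binding in PC3 cells was compared between cells given vehicle and cells given C12, an inhibitor of the lysine demethylase LSD1, at 0.5 µM for 4 h. PC3 is a prostate cancer cell line from a bone metastasis, and the labels name no genetic change in these cells. In ChIP-seq, chromatin fragments carrying a chosen protein are pulled down with an antibody and sequenced. The antibody here was against FOXA2, and each group was a single list of enriched regions on the hg19 build. The vehicle list held 24038 regions and the C12 list 8352, together 32390 of the 871377 regions in the 22 lists of the series. Membership was set by overlap of at least 1 bp. A vehicle region was kept if it overlapped a C12 region and lost if it did not, and a C12 region was new if it overlapped no vehicle region. By this rule 7125 vehicle regions were kept (29.6% of 24038) and 16913 were lost (70.4% of 24038), while 1242 C12 regions were new (14.9% of 8352) and 7110 were matched. With 1 list per side there was no replicate check, so no p-value was computed, and the 95% intervals given with shares (Wilson) and with differences cover counting error only.

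FOXA2 belongs to the forkhead family of pioneer factors, which bind their motif in closed chromatin and open it for other factors. LSD1 removes methyl groups from lysines of histone H3 and of some other proteins, FOXA1 among them, and the study asked whether it acts on FOXA2 binding as well. Regulatory DNA in use is accessible to a transposase (ATAC-seq) and carries acetylated histone H3 (H3K27ac). AP-1 is a dimer of JUN-family and FOS-family proteins, such as JUN and FOSL1, and binds enhancers of epithelial and stem cell-like cells. The ATAC and H3K27ac lists came from vehicle-treated PC3 cells, and the JUN and FOSL1 lists from PC3 cells transfected with a control siRNA (siNC). None of these lists came from cells given C12. Markers were checked at transcription starts, within 1 kb. KRT8 and KRT18, the keratins of simple epithelium, had both ATAC and H3K27ac there, and so did the mesenchymal gene VIM. KLK3 (a kallikrein of luminal cells), CHGA (a neuroendocrine granule protein) and PTPRC (the pan-leukocyte antigen) had neither. The start of FOXA2 also carried both marks, and AXL, a receptor kinase gene, had FOXA2 at its start in the vehicle list only.

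The sequences below are hg19 plus-strand DNA, 100 bp on either side of the centre of regions that stand for the classes. They are among the highest-scoring regions of each class or the highest-scoring vehicle regions within 50 kb of the starts of 4 genes taken from the ChIP-qPCR panel of the study. Capitals mark motif words. The 8 forkhead words begin with TGTTT or TATTT and end in AC, AT, GC or GT, and the AP-1 words were TGACTCA or its reverse complement TGAGTCA. Both strands were searched, so a forkhead word can appear as its reverse complement, such as GTAAACA. Outside shared places, meaning places overlapped in at least 17 of the 22 lists, the 2 kept regions with the highest vehicle scores lay at NRP1, which encodes the VEGF and semaphorin co-receptor neuropilin 1. The others lie at NDC80, a kinetochore gene, and TP63, the master regulator of basal epithelium.
NRP1 distal, kept, chr10:33445077-33445277: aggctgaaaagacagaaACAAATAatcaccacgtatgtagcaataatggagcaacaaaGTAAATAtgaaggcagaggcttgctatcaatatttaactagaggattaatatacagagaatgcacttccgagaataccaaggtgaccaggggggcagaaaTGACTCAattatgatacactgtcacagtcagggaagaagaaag
NRP1 promoter, kept, chr10:33553262-33553462: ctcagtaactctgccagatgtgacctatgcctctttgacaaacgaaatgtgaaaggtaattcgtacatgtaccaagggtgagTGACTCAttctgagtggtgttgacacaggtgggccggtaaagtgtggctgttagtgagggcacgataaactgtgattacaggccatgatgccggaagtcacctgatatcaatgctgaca
NDC80, kept, chr18:2592839-2593039: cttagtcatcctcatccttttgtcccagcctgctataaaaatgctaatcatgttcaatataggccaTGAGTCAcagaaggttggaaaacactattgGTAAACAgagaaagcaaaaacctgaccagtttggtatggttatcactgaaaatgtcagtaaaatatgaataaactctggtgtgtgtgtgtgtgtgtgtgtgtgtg
TP63, kept, chr3:189537858-189538058: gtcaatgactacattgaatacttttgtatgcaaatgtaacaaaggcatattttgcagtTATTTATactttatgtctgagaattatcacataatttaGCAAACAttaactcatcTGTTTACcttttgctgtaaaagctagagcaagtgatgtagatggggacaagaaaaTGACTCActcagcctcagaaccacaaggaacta
All 4 of these windows held an AP-1 word, and the NRP1 promoter was the only one of them without a forkhead word. The lost regions shown next lie at KCNH5, a potassium channel gene, CAB39, which encodes a scaffold of the kinase LKB1, and CDK1, the mitotic kinase. A further one lies 41859 bp from the start of CEP55, needed for the last step of cell division, and its nearest gene is FFAR4 (17796 bp).
KCNH5, lost, chr14:63267371-63267571: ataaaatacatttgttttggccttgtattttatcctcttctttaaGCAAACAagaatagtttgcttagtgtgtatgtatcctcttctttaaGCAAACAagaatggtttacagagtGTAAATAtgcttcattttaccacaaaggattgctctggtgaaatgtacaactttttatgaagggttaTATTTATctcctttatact
CAB39, lost, chr2:231603755-231603955: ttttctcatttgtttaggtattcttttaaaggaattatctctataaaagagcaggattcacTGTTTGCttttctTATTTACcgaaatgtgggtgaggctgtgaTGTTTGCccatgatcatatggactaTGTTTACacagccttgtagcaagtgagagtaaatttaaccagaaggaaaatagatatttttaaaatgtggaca
FFAR4 and CEP55, lost, chr10:95308526-95308726: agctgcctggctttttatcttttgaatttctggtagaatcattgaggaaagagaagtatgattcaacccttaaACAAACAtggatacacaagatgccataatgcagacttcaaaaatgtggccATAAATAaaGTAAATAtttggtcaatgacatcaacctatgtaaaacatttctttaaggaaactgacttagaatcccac
CDK1, lost, chr10:62561471-62561671: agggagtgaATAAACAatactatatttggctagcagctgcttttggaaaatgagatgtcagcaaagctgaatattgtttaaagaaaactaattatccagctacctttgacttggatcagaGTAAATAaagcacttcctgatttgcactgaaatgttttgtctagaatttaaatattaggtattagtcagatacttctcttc
None of these 4 windows held an AP-1 word. Over whole classes the examples do not stand for a difference, as such a word stood in 25.8% of kept and 26.6% of lost windows. The KCNH5 and CAB39 windows held 4 forkhead words each, the window near FFAR4 and CEP55 3 and the CDK1 window 2. The new region shown, the second highest in score, lay far from any protein-coding start, with UQCRFS1 the nearest gene.
UQCRFS1, new, chr19:27736283-27736483: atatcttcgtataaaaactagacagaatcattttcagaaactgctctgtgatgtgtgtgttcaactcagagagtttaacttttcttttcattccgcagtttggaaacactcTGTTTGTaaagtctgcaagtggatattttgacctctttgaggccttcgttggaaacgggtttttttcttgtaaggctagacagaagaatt
It held 1 forkhead word, had ATAC, H3K27ac and FOSL1 and overlapped regions in 14 lists. It is not typical of its class. Of all new regions, 33.3% held a forkhead word, 41.6% had ATAC, 25.6% had H3K27ac and 9.98% had FOSL1. These windows are examples, and the shares over whole classes are given further on.

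The C12 list was shorter than the vehicle list by a log2 ratio of −1.53 (−1.56 to −1.49). Each region carried a deposited score, taken to be the peak caller's −log10 q-value times 10, which ranks regions within a list. Kept regions had a median vehicle score of 353 and lost regions one of 115. The median was 35 for new C12 regions and 138 for matched ones. Among regions outside shared places, the 3 highest-scoring kept regions were the NRP1 distal region (12604), the NRP1 promoter (8091) and an intronic region of KAT6B (5509), a histone acetyltransferase gene. The 3 highest-scoring lost regions scored 1868 in KCNH5, 1697 in CAB39 and 1555 in an intergenic region nearest to RALYL. The 3 highest-scoring new regions scored 624, 570 and 344. In the C12 list the 3 kept regions scored 2624, 4784 and 1789, so that their order was not that of the vehicle list.

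Keeping followed the vehicle score closely. When the vehicle list was cut into 10 groups of 2403 or 2404 regions by score, the kept share was 6.11% in the lowest decile (scores 13 to 52), 15.4% in the fifth (119 to 150) and 89.0% in the highest (540 and above). The new share went the other way, from 72.4% of the lowest decile of the C12 list to 0.240% of its highest, which held 2 new regions. Because the lists give no read numbers, the depth of either library is unknown, and a lower FOXA2 signal and a shallower library cannot be told apart. When only the 8352 highest-scoring vehicle regions were set against the C12 list, 61.2% of them were kept (60.2 to 62.2%). The main comparisons of kept and lost regions below are therefore also given standardised. This is the mean of the differences within the 10 vehicle score deciles, weighted by the regions compared in each. Kept shares of groups are also given at the decile makeup of the whole list.

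**Figure D1:**
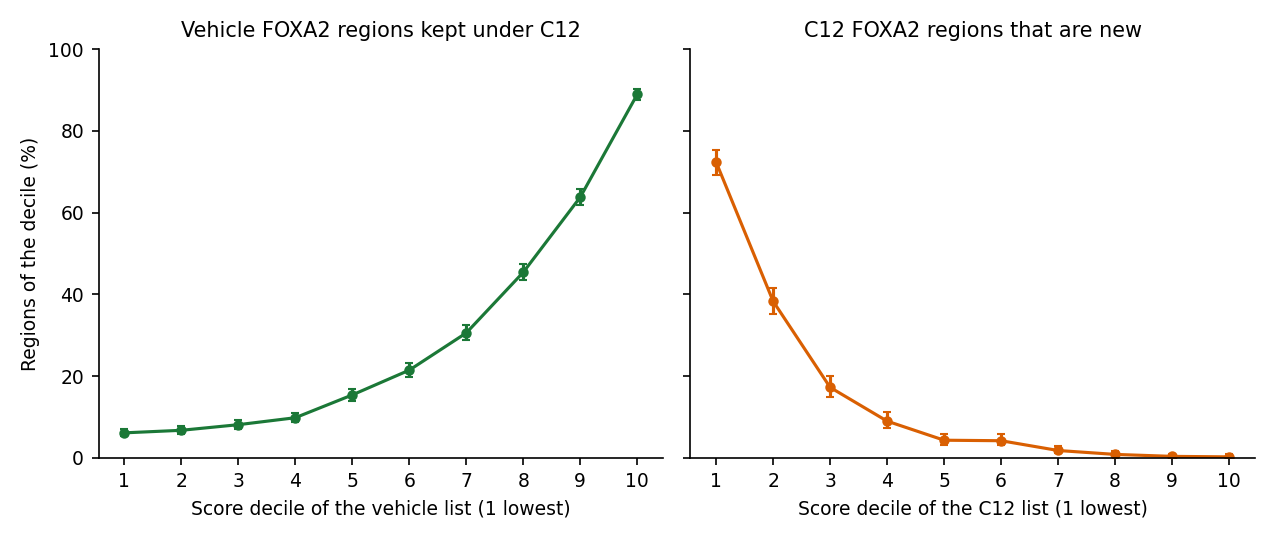
Share of vehicle FOXA2 regions kept under C12 by decile of the vehicle score (left) and share of C12 regions that were new by decile of the C12 score (right), in percent; points are shares and bars Wilson 95% intervals. The kept share climbs from 6.11% to 89.0% and the new share declines from 72.4% to 0.240%.

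The kept places themselves scored lower under C12, in scores that are not on a common scale because read depth is unknown. The median score at the 7125 kept regions was 353 in the vehicle list and 138 in the C12 list, and the median of the log2 ratios of C12 to vehicle score was −1.22 (interquartile range −1.82 to −0.66). Of these places, 6512 (91.4%) scored lower under C12. Across the kept regions the Spearman correlation of the scores was 0.66, a description over regions that share 2 libraries. The ratio depended on the decile. In the lowest decile the 147 kept regions had a median log2 ratio of 0.36 and 46 of them scored lower, whereas in the highest decile the 2138 kept regions had one of −1.44 and 2070 scored lower. A region of the lowest decile could be kept only if its C12 score also passed the caller's threshold, so the ratios there describe the members that remained. The kept regions were also narrower under C12, with a median of 318 bp against 384 bp, and the centres of overlapping regions lay a median of 25 bp apart.

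**Figure D2:**
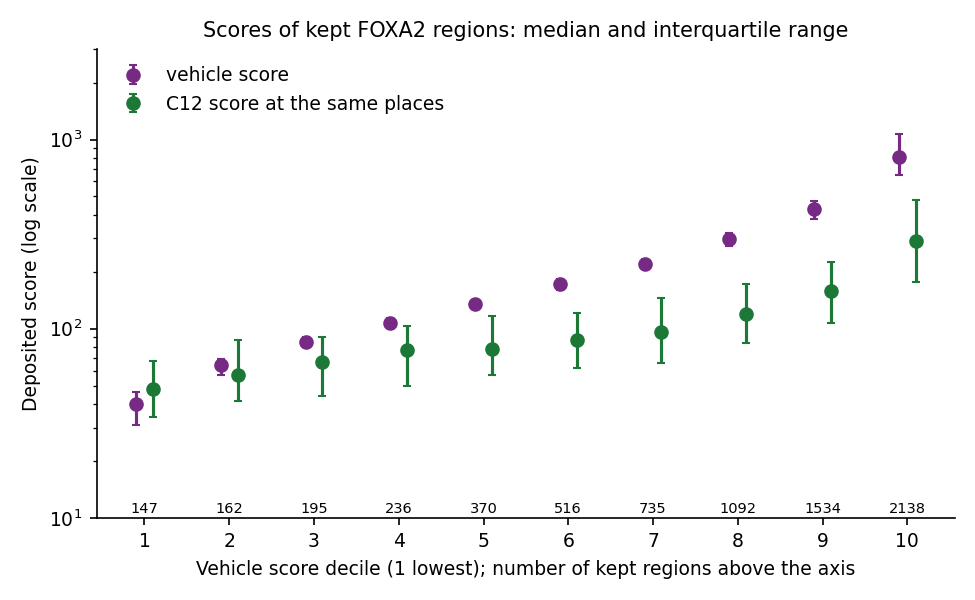
Deposited score of the kept FOXA2 regions in the vehicle list (purple) and at the same places in the C12 list (green), by vehicle score decile, on a log axis; points are medians, bars interquartile ranges, and the numbers above the axis count kept regions. The C12 median is above the vehicle median in decile 1 (48 against 40) and below it in deciles 2 to 10 (291 against 812 in decile 10).

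The largest shifts in rank were found at loci of different kinds. The 3 kept regions that dropped most in rank lay on chromosome 8, nearest to EMC2, POU5F1B and HNF4G. Their distances from these starts were 149922, 83882 and 305047 bp. The region nearest to EMC2, which encodes a subunit of the membrane protein insertion complex, scored 995 in the vehicle list and 23 under C12. The region nearest to POU5F1B, a retrogene of the pluripotency factor OCT4, scored 913 and 26. The region nearest to HNF4G, a hepatocyte nuclear factor gene, scored 2573 and 33. It lay beyond 100 kb and is not among the regions assigned to HNF4G below. These 3 regions had ATAC, H3K27ac and a forkhead motif. The 3 that gained most scored 57, 85 and 57 in the vehicle list and 302, 651 and 273 under C12. They lay nearest to LRP1B, GIMD1 and CNBD2, at 470596, 129956 and 6633 bp from the starts. None of these 3 held a forkhead or AP-1 motif in its window or overlapped either of the 2 further vehicle-treated PC3 FOXA2 ChIPs of the series, whose antibody was not labelled, and they recurred in 16, 13 and 10 of the 22 lists.

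Kept regions were more often in active chromatin than lost regions. ATAC regions overlapped 96.2% of kept (95.7 to 96.6%), 86.5% of lost (85.9 to 87.0%) and 41.6% of new regions (38.9 to 44.4%). Standardised over score deciles, the difference between kept and lost was 2.76 percentage points (1.48 to 4.04), and the kept share was higher in 9 of 10 deciles. The difference was 4.66 points where the ATAC region had to cover at least 50% of the FOXA2 region. H3K27ac separated the classes further, at 78.3% of kept, 50.5% of lost and 25.6% of new regions. The standardised difference was 17.03 points (15.2 to 18.9) and the kept share was higher in all 10 deciles, though in decile 1 only by 41.5% against 39.7%. Where neither mark was found, 162 of 2144 vehicle regions were kept (7.56%, 6.51 to 8.75%). With ATAC alone the kept share was 17.8%, with H3K27ac alone 26.3% and with both 39.9% (39.1 to 40.8%). At the decile makeup of the whole list these shares were 16.7% with neither, 22.9% with ATAC alone, 32.3% with H3K27ac alone (27.7 to 36.8%) and 33.6% with both (32.98 to 34.3%). The ATAC score over kept regions was higher as well, with a median of 1023 against 464 over lost regions, and the kept median was higher in 9 of the 10 deciles. For the H3K27ac score (312 against 226) and the JUN score (213 against 146) the kept median was higher in 6 of the 10.

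Regions with AP-1 were kept more often than those without. JUN was found at 69.5% of kept (68.4 to 70.6%), 33.7% of lost (33.0 to 34.4%) and 16.2% of new regions (14.2 to 18.3%), and FOSL1 at 17.9% of kept (16.99 to 18.8%), 2.77% of lost (2.53 to 3.02%) and 9.98% of new regions (8.44 to 11.8%). The standardised differences between kept and lost were 27.7 points for JUN (25.8 to 29.6) and 22.1 points for FOSL1 (20.6 to 23.7), and for both the kept share was higher in all 10 deciles. In deciles 6 to 10 alone, a choice made after seeing the data, the difference was 22.6 points for JUN and 13.1 points for FOSL1 (11.9 to 14.3). Of the 13210 vehicle regions with neither factor, 15.8% were kept (15.2 to 16.4%). The kept share was 41.4% among 9087 regions with JUN alone, 48.3% among 176 with FOSL1 alone and 75.9% among 1565 with both (73.7 to 78.0%). At the decile makeup of the whole list these shares were 22.2%, 33.1%, 52.9% and 68.1%. JUN and H3K27ac went together: 49.8% of 8375 regions with both were kept, 34.3% of 2277 with JUN alone, 24.6% of 5739 with H3K27ac alone and 9.96% of 7647 with neither. Standardised to the decile makeup, the shares lay closer together, at 38.8%, 33.4%, 26.6% and 18.2%.

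The JUN list of PC3 cells given an siRNA against FOXA2 (siFOXA2), 4081 regions against 23890 in siNC cells, separated the JUN-bound regions further. Among the vehicle FOXA2 regions with JUN in siNC cells, JUN was still called after siFOXA2 at 1428 of 4952 kept regions (28.8%, 27.6 to 30.1%) and at 520 of 5700 lost regions (9.12%, 8.40 to 9.90%). The standardised difference was 26.6 points (24.7 to 28.5), with the kept share higher in all 10 deciles. That difference was not recomputed without shared places or among regions in both further PC3 FOXA2 ChIPs. Put the other way, 73.3% of the 1948 regions where JUN was still called after siFOXA2 were kept under C12, against 40.5% of the 8704 where it was not (64.7% and 32.3% standardised). The drop in score at kept regions was smaller where FOSL1 was found, with a median log2 ratio of −0.41 against −1.36 without FOSL1. For JUN these medians were −1.18 and −1.30, and for H3K27ac −1.21 and −1.26. These medians were not standardised over deciles, although the ratio fell with the decile. FOSL1 stood at 45.6% of kept regions in decile 1 and at 18.0% in decile 10. The part of the decile makeup in the FOSL1 gap was not tested.

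**Figure D3:**
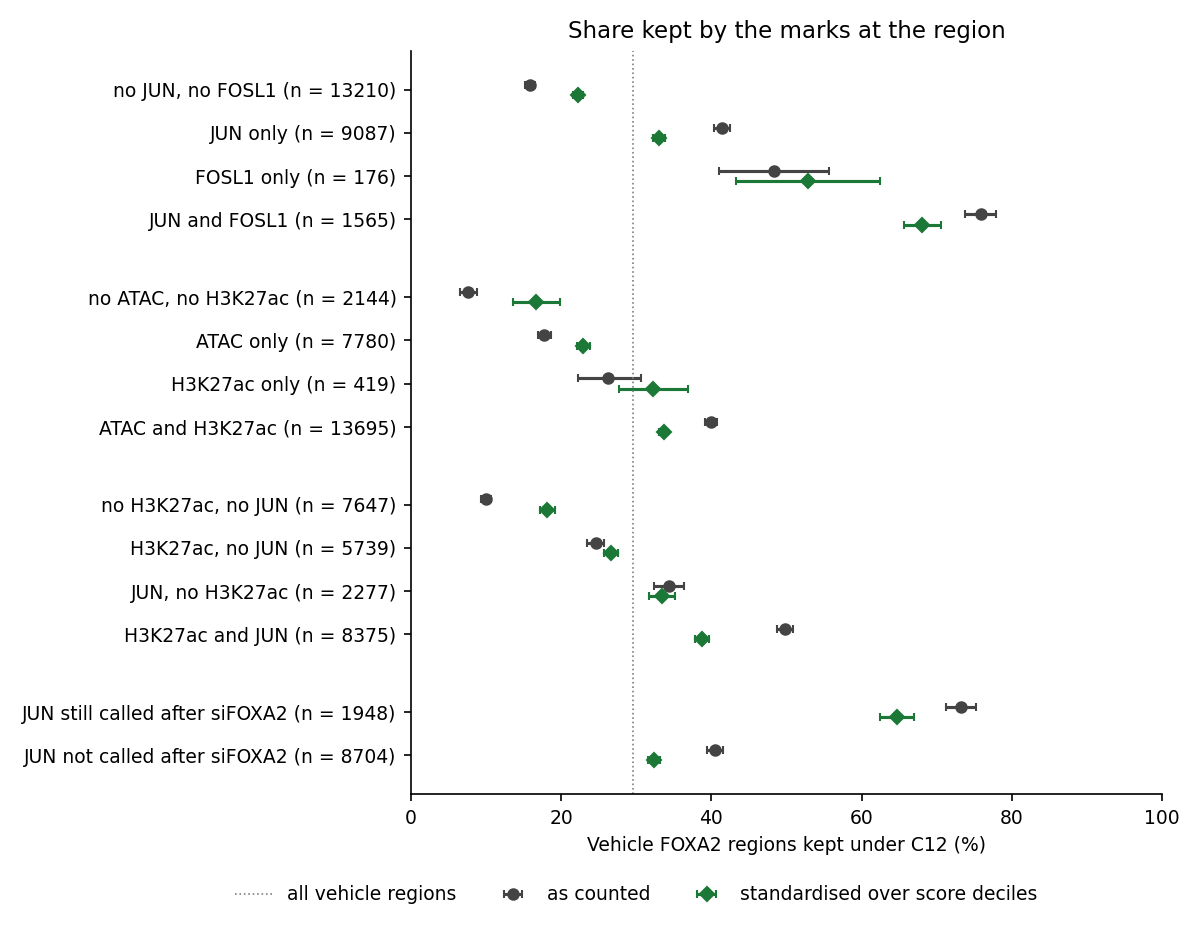
Share of vehicle FOXA2 regions kept under C12, in percent, by the marks found at the region; grey circles are shares as counted with Wilson 95% intervals, green diamonds are shares standardised over score deciles with 95% intervals, and the dotted line is the share of all vehicle regions (29.6%). Regions with JUN and FOSL1 sit at 75.9% as counted and 68.1% standardised, to the right of those with JUN alone (41.4% and 33.1%).

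Kept regions at a given score were also places that recurred in lists of other cell lines, which touches the results on AP-1 and the motifs. In NCI-H660, a line of neuroendocrine prostate cancer, FOXA2 regions of vehicle-treated cells overlapped 24.3% of kept and 5.54% of lost regions (standardised difference 20.5 points, 18.9 to 22.2). FOXA2 regions of LNCaP cells overexpressing FOXA2 overlapped 12.7% of kept and 1.59% of lost regions (standardised difference 22.8 points, 21.3 to 24.4). Shared places made up 396 of the kept regions (5.56%) and 7 of the lost regions (0.0414%), and the median log2 score ratio at the former was −0.04. The C12 list is one of the 22 lists that define shared places, so this count is tied in part to the class. Both further PC3 FOXA2 ChIPs were overlapped by 89.9% of kept and 90.6% of lost regions, but within deciles the kept share was lower in all 10, with a standardised difference of −16.1 points (−17.6 to −14.5). In decile 1 it was 29.9% of kept and 66.7% of lost regions. Among vehicle regions present in both of these ChIPs, a subset also taken after seeing the data, the standardised difference between kept and lost was 24.2 points for JUN (22.0 to 26.5), 21.7 points for H3K27ac (19.7 to 23.8), 7.18 points for ATAC (6.21 to 8.15) and 9.43 points for FOSL1 (7.97 to 10.9). The part of recurrence in the kept class was not tested beyond this.

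The motifs differed little between kept and lost regions as counted. At a like score they were rarer in kept regions, except for AP-1 words in deciles 9 and 10. A forkhead word stood in 75.4% of kept (74.4 to 76.4%) and 78.1% of lost windows (77.4 to 78.7%), against 34.7% and 36.2% of windows 2 kb to either side and 25.6% of 188711 windows on PC3 accessible regions without FOXA2. Within deciles the kept share was lower in all 10, with a standardised difference of −15.0 points (−16.8 to −13.2). It was −8.15 points (−9.78 to −6.52) in deciles 6 to 10, −8.02 points (−10.1 to −5.95) among regions in both further FOXA2 ChIPs and −5.93 points (−7.59 to −4.27) for the words TGTTTAC and TGTTTGC alone. The latter words, taken without regard to score, were more frequent in kept (39.2%) than in lost windows (33.6%). At least 3 forkhead positions were found in 12.8% of kept and 13.8% of lost windows, with a standardised difference of −5.34 points (−6.48 to −4.19). An AP-1 word stood in 25.8% of kept and 26.6% of lost windows, against 2.90% and 2.95% of the windows 2 kb away and 15.9% of the accessible windows without FOXA2. The standardised difference for AP-1 words was −5.50 points (−7.03 to −3.97). It was −2.21 points (−4.13 to −0.29) in deciles 6 to 10 and −0.38 points (−2.47 to 1.70) among regions in both further ChIPs. Within deciles the kept share for AP-1 words was higher in 2 of 10. These were decile 9 (28.5% against 27.4%) and decile 10 (28.5% against 27.5%). Among all vehicle windows, those with neither motif were kept in 34.5% of 3836 cases and those with both in 29.9% of 4710 (40.4% and 26.4% standardised).

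**Figure D4:**
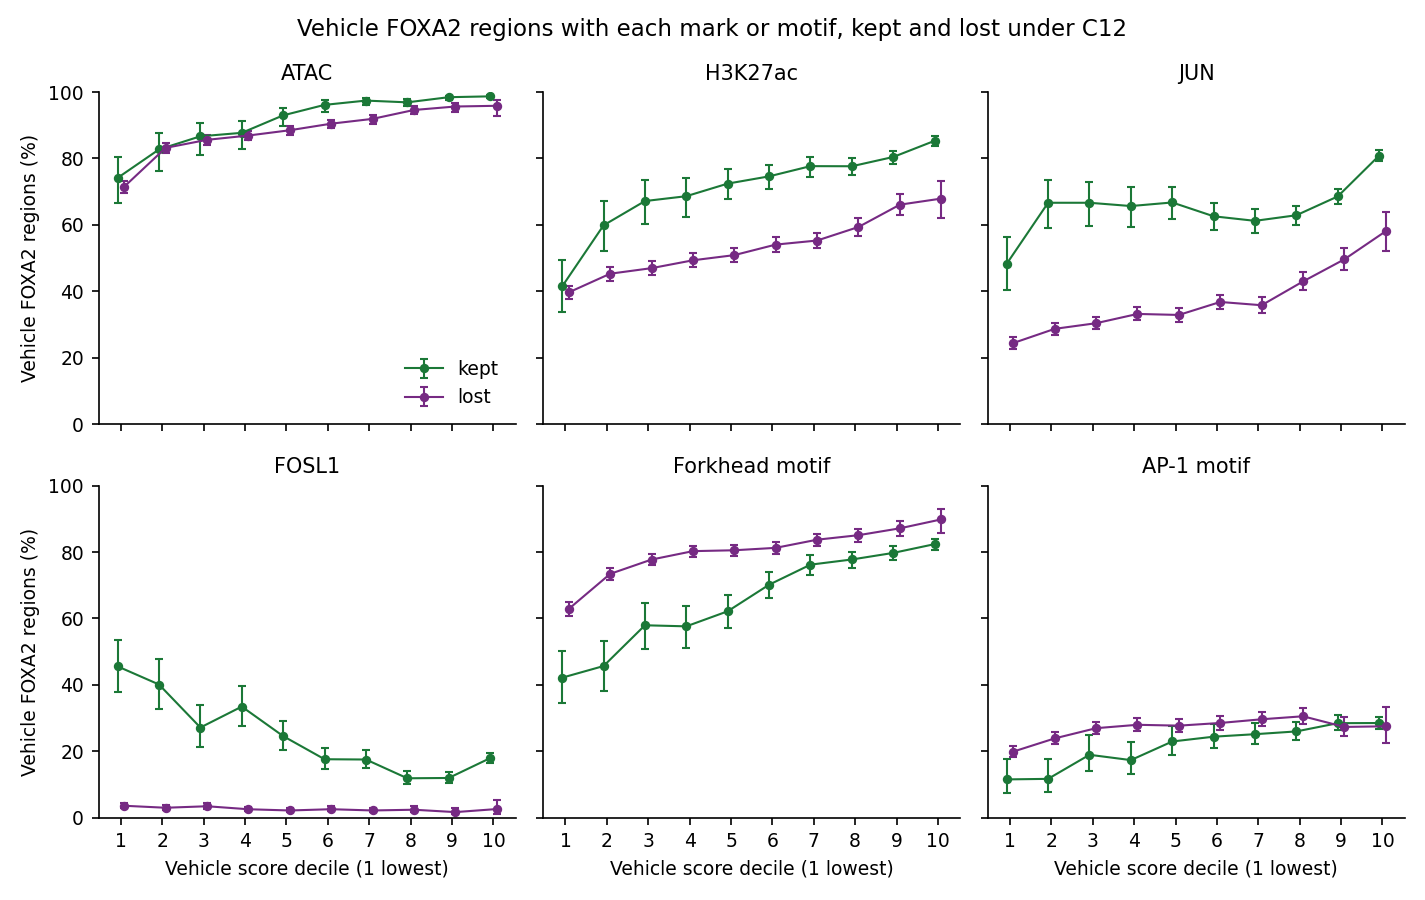
Share of kept (green) and lost (purple) vehicle FOXA2 regions with ATAC, H3K27ac, JUN, FOSL1, a forkhead motif or an AP-1 motif, in percent, by vehicle score decile; points are shares and bars Wilson 95% intervals. The kept line lies above the lost line for H3K27ac, JUN and FOSL1 in all 10 deciles and below it for the forkhead motif in all 10.

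By annotation, kept and lost regions held like shares of most classes as counted. Promoters (within 1 kb of a protein-coding transcription start) held 4.15% of kept (3.72 to 4.64%), 3.90% of lost (3.62 to 4.20%) and 3.86% of new regions (2.93 to 5.09%), and the standardised difference of 0.39 points between kept and lost spanned 0 (−0.40 to 1.18). Introns held 41.2% of kept and 42.9% of lost regions, and coding exons 2.18% and 2.01%. UTRs held 1.28% of kept (1.04 to 1.57%) and 1.74% of lost regions (1.55 to 1.95%). Between genes lay 51.2% of kept and 49.5% of lost regions, but 60.2% of new regions (57.5 to 62.9%). The median distance to the nearest protein-coding start was 55254 bp for kept, 57410 bp for lost and 116212 bp for new regions. A protein-coding start lay within 100 kb of 62.4% of kept and 61.8% of lost regions, but within deciles of score the kept share was lower, by a standardised difference of −3.88 points (−5.80 to −1.96), and was higher in 3 of 10 deciles. The median GC content of the windows was 40.3% for kept, 36.8% for lost and 45.8% for new regions. Clustering was related to keeping: 26.4% of vehicle regions without a neighbour within 25 kb were kept (25.6 to 27.2%), against 42.7% of the 1891 with 3 or more neighbours (40.5 to 44.9%), and 28.1% against 37.4% after standardising over deciles.

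The regions were assigned to the gene with the nearest protein-coding start within 100 kb, which placed 14895 vehicle regions at 6690 genes, and 29.9% of these regions were kept. At 3627 genes every vehicle region was lost, at 1122 every one was kept, and at 1941 there were regions of both classes. Of 667 genes with 5 or more vehicle regions, 76 lost every one and 4 kept every one. The 8 genes with the most lost and no kept region were PSD3 (15 lost), RERE (12), TEAD1 (9), and with 8 each ADK, CDH18, LUZP2, NFIB and PPARG. RERE is a nuclear receptor coregulator gene, TEAD1 encodes the DNA-binding partner of YAP, ADK is adenosine kinase, CDH18 a cadherin gene, NFIB a nuclear factor I gene and PPARG the lipid-sensing nuclear receptor. Their lost regions had median scores between 73 and 148, which lie in the lower 5 deciles. None of these regions had FOSL1, which was rare among lost regions in general (2.77% of 16913). The 8 genes with the most kept regions were FOXP1 (14 of 24 kept), KCNMA1 (14 of 34), NRP1 (11 of 23), LTBP1 (10 of 17), OR4C46 (10 of 10), ANK3 (9 of 23), LPP (8 of 22) and PARD3 (8 of 17). FOXP1 is itself a forkhead gene, KCNMA1 encodes a calcium-activated potassium channel, LTBP1 a latent TGF-beta binding protein, ANK3 an ankyrin, LPP a focal adhesion protein and PARD3 a polarity protein. Of the 10 regions at OR4C46, an olfactory receptor gene, 8 were shared places and 9 had FOSL1, and they were found in a median of 20.5 of the 22 lists. The kept regions of the other 7 genes had median scores from 518.5 to 1142, and H3K27ac was found at 7 or more of them at each gene.

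At NRP1 the 23 vehicle regions all had ATAC and 19 had H3K27ac. All 11 kept regions had both marks, 8 had JUN and 4 had FOSL1. The distal region at chr10:33444862-33445491 scored 12604 in the vehicle list and 2624 under C12, and the promoter region at chr10:33553102-33553621 scored 8091 and 4784. An intronic region at chr10:33505589-33506062 scored 2628 and 197, a larger proportional drop. The highest-scoring lost NRP1 region, intronic at chr10:33617988-33618406, scored 998 and had ATAC and JUN but no H3K27ac.

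Among lists of genes, the AP-1 subunit genes kept the largest share of their regions and the LSD1 and CoREST genes the smallest. Of 10 vehicle regions at AP-1 genes 8 were kept (80.0%, 49.0 to 94.3%), where the whole list kept 39.4% at the same deciles. Every one of the 7 AP-1 genes with a region kept at least 1, namely ATF3, BATF3, FOS, FOSL2, JUN, JUNB and MAFK. The list was thus drawn wider than the JUN and FOS families, as it took in ATF3, BATF3 and MAFK. Both MAFK regions were kept (615 and 787 in the vehicle list, 329 and 520 under C12), as was the region 31297 bp from the JUN start (339 and 198), while the JUN region 65412 bp away was lost (101). At genes of the corepressor complex of LSD1 and CoREST, 0 of 8 regions were kept, which allows a share of up to 32.4%, and the whole list kept 13.02% at the same deciles. They included 2 regions each at KDM1A, which encodes LSD1, and at its partner RCOR1, with scores of 90 and 47 at KDM1A. These lists were small, and their kept counts describe these members alone.

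The FOXA and hepatocyte nuclear factor genes kept 6 of 23 regions (26.1%, 12.5 to 46.5%, against 36.2% at the same deciles). FOXA2 itself had 7 regions, of which 2 were kept. The kept ones lay 71981 bp from the start (2377 in the vehicle list, 1221 under C12) and 5789 bp from it (1099 and 604), and both had ATAC, H3K27ac and JUN. The 5 lost ones scored between 56 and 297. FOXA1 kept 3 of 4 regions and HNF4G 1 of 10. At genes of the YAP and TEAD pathway, which controls growth through contact and tension, 8 of 45 regions were kept (17.8%, 9.29 to 31.3%), where the whole list kept 25.5% at the same deciles. TEAD1 lost all 9 and YAP1 all 6 of its regions, the highest of which scored 418 and 210. The 6 YAP1 regions included its promoter (157) and all 6 had ATAC and H3K27ac. AMOTL1, a pathway regulator, kept 2 of 4 and ANKRD1, a target gene, 1 of 2.

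WNT pathway genes kept 20 of 47 regions (42.6%, 29.5 to 56.7%), where the whole list kept 35.0% at the same deciles. The ligand gene WNT5A kept 5 of 8, including its promoter (154 and 151), and its highest-scoring region dropped from 1197 to 108. The transcription factor gene TCF7L2 kept 3 of 6. Growth factor receptors and ligands kept 23 of 61 regions (37.7%, 26.6 to 50.3%, against 39.1% at the same deciles), 11 of them at NRP1, and EGFR, the epidermal growth factor receptor gene, kept 4 of 9. The 4 kept EGFR regions scored 339 to 584 in the vehicle list and 241 to 431 under C12, and the 5 lost ones scored 40 to 190, so the 2 classes did not overlap in score. TGF-beta and activin genes kept 12 of 43 regions (27.9%, 16.7 to 42.7%, against 25.9% at the same deciles). The type 2 receptor gene TGFBR2 kept 3 of 6, TGFBR1 lost all 5 and the activin subunit gene INHBB kept 2 of 4.

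Basal epithelial genes kept 11 of 29 regions (37.9%, 22.7 to 56.0%, against 40.7% at the same deciles), with 4 of 10 at the hemidesmosomal gene DST and 3 of 8 at TP63. Mesenchymal and matrix genes kept 10 of 39 (25.6%, 14.6 to 41.1%, against 27.96% at the same deciles), with 2 of 6 at the integrin gene ITGB1, 1 of 5 at the fibronectin gene FN1 and 2 of 3 at the lysyl oxidase gene LOXL2. Inflammatory cytokine and NF-kB genes kept 6 of 25 (24.0%, 11.5 to 43.4%, against 25.6% at the same deciles). At the chemokine gene CXCL8 2 of 7 were kept, one of them the promoter (1263 and 844), LIF kept 2 of 3 and TNFAIP3, an NF-kB inhibitor gene, lost all 4. Protease and plasminogen genes kept 7 of 33 (21.2%, 10.7 to 37.8%, against 25.9% at the same deciles). SERPINE2, a protease inhibitor gene, kept 1 of 5, PLAU, which encodes urokinase, lost all 4, and ADAM9 and ADAMTS1 kept 1 of 3 and 1 of 2. Neuroendocrine genes kept 3 of 9 (33.3%, 12.1 to 64.6%, against 31.5% at the same deciles), among them 1 of 3 at SOX2, 0 of 2 at CHGB and single regions at INSM1 and SCG2. Except for the AP-1 genes, the interval of each list contained the share that the whole list kept at the same deciles.

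**Figure D5:**
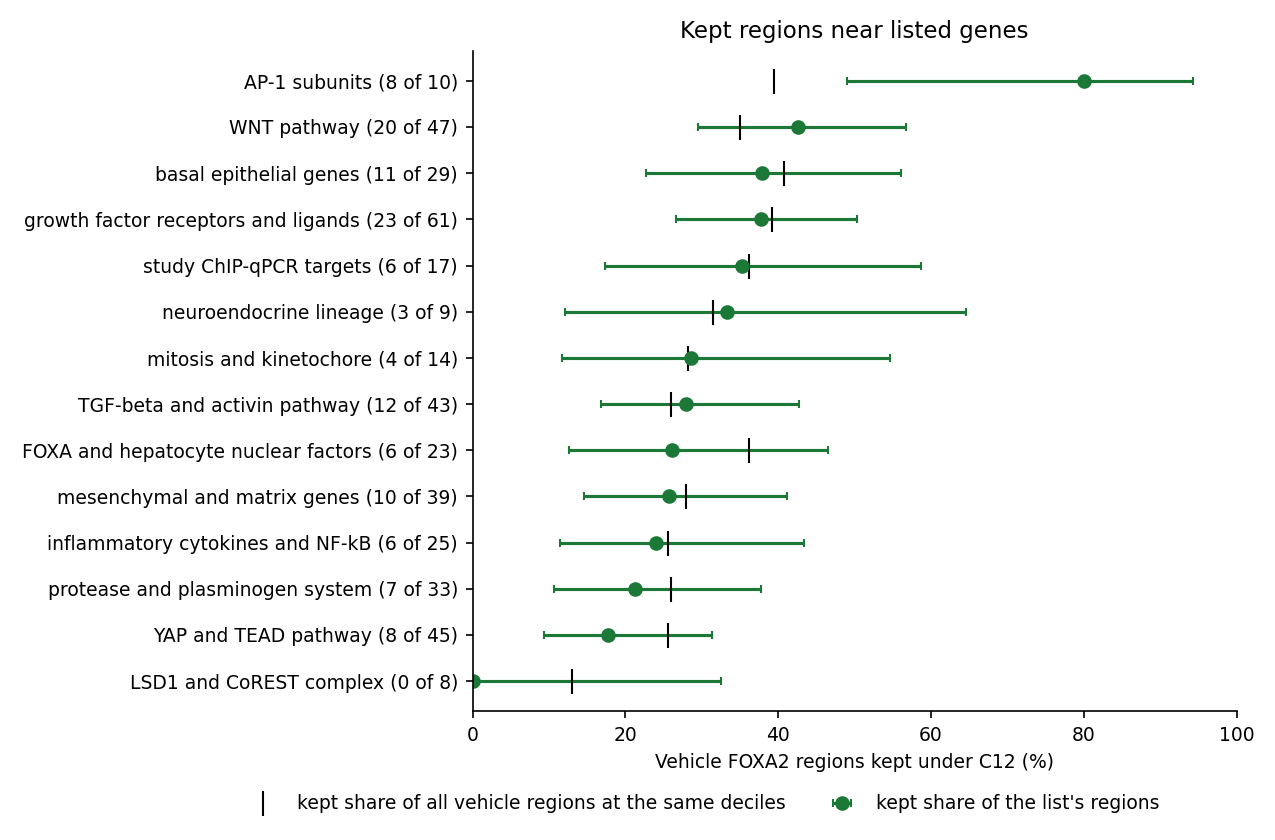
Share of vehicle FOXA2 regions kept under C12, in percent, at the genes of each list (points, with Wilson 95% intervals and kept counts in the labels) and the share kept by all vehicle regions at the same score deciles (vertical ticks). The AP-1 subunit genes (8 of 10) lie to the right of their tick, and the intervals of the other lists include theirs.

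Mitosis and kinetochore genes, which include 5 of the ChIP-qPCR panel, kept 4 of 14 regions (28.6%, 11.7 to 54.6%, against 28.1% at the same deciles), and the kinetochore gene NUF2 kept 2 of 6 and BUB1 0 of 1. The 8 genes of that panel together kept 6 of 17 assigned regions (35.3%, 17.3 to 58.7%, against 36.1% at the same deciles). By place, within 50 kb of a transcription start, CEP55 had 4 vehicle regions of which 1 was kept (217 in the vehicle list, 61 under C12), and the highest-scoring one (591) was lost. CDK1 had 1 region, lost (300), and 2 new ones. CCBE1, which encodes a secreted factor for lymphatic growth, had 4 regions and kept the highest (423 and 163). NDC80 had 2 regions and kept the higher (614 and 164), while the other (520) was lost. The only region at ERCC6L, a helicase gene of mitosis, was kept (127 and 33). TP63 kept 1 of 3 (355 and 132), the only region at WNT7A, a WNT ligand gene, was lost (125), and INCENP, a gene of the chromosomal passenger complex, had none, its one assigned region (495, lost) lying 77966 bp away. All 5 kept regions of this group scored lower under C12, and the vehicle scores of kept (127 to 614) and lost regions (44 to 591) overlapped.

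New regions were less often in active chromatin than matched ones. Of the 1242 new regions, 51.6% (48.8 to 54.4%) had none of ATAC, H3K27ac and JUN, and 406 (32.7%, 30.1 to 35.3%) overlapped no region in any other list of the series. A forkhead word stood in 33.3% of new windows (30.8 to 36.0%), against 39.8% of windows 2 kb from them (37.9 to 41.7%) and 74.7% of matched windows. An AP-1 word stood in 8.37% (6.96 to 10.0%), against 1.98% of windows 2 kb away and 25.3% of matched windows. Either of the further PC3 FOXA2 ChIPs was overlapped by 284 new regions (22.9%, 20.6 to 25.3%), and 63.7% of these held a forkhead word, against 26.5% of the new regions without ATAC, H3K27ac and JUN. Within C12 score deciles the matched share stayed higher in all 10 for ATAC (standardised difference 37.4 points, 27.3 to 47.6), H3K27ac (33.3 points, 23.1 to 43.4), JUN (33.3 points, 23.6 to 43.1) and the forkhead motif (33.2 points, 23.4 to 43.1). FOSL1 did not follow. As counted it was found at 17.7% of matched and 9.98% of new regions, but its standardised difference was −10.6 points (−20.0 to −1.17). The intervals are wide because the highest deciles held few new regions, with 7, 3 and 2 in deciles 8, 9 and 10, which weigh as much as the others. FOXA2 regions of LNCaP cells overexpressing FOXA2 overlapped 14.8% of new and 12.5% of matched regions, with a standardised difference of −34.4 points (−43.5 to −25.4).

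The new regions were unevenly spread over chromosomes. Chromosome 8 held 219 of them, chromosome 10 158, chromosome 3 128 and chromosome 14 94. These 4 chromosomes, picked for these counts, held 599 of the 1242 new regions (48.2%) and 25.5% of the vehicle regions. On chromosome 8 30.9% of C12 regions were new and on chromosome 10 27.4%, against 5.36% on chromosome 6 and 7.14% on chromosome 2. The densest 10 Mb were 50 to 60 Mb of chromosome 10, with 60 new among 111 C12 regions. New regions of the 4 chromosomes had ATAC in 34.9% (31.2 to 38.8%) and a forkhead word in 29.4% (25.9 to 33.2%), against 47.9% (44.1 to 51.8%) and 37.0% (33.4 to 40.8%) elsewhere. The kept share of vehicle regions was 31.7% on these 4 chromosomes and 28.9% on the others. Over single autosomes and X it ranged from 19.3% of 670 regions on chromosome 13 to 39.6% of 318 on chromosome 16. At genes, 588 new regions were assigned to 492 genes, of which 119 had no vehicle region. PCDH15, a protocadherin gene on chromosome 10, had 8 new regions besides 10 vehicle regions, TPTE, a testis phosphatase gene, 7 new and no vehicle region, and PRKG1, a cGMP-dependent kinase gene, and TRPS1, a GATA-type repressor gene, 5 each. Their new regions scored low, with medians of 36.5 at PCDH15, 50 at TPTE, 24 at PRKG1 and 46 at TRPS1.

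The other LSD1 inhibitor of the series, ORY-1001, was given at 10 µM for 4 h, a different dose, and shared the vehicle list, so only the values are set side by side. The ORY-1001 list held 13732 regions and 36.8% of vehicle regions overlapped it (36.2 to 37.4%), against 8352 regions and 29.6% (29.1 to 30.2%) for C12.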

How the data were processed

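PC3 cells were grown in RPMI-1640 with serum and given vehicle or C12, and FOXA2 ChIP libraries were made after formaldehyde fixation and sonication. Per the labels, reads were checked with FastQC 0.11.9, aligned to hg19 with BWA 0.7.17-r1188 and SAMtools 1.9, and regions were called with MACS2 2.1.4. The deposited lists give intervals and, in 20 of 22 lists, an integer score that the authors' peak caller wrote, taken here as 10 times −log10 q and at least 13 in both FOXA2 lists. Whether the labelled sample was pooled from several cultures is not given in the sources used here. Read depth is unknown, so scores of 2 lists are not on a common scale.

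Lists were intersected in Python 3.11.15 (numpy 2.4.6, pandas 2.3.3, figures with matplotlib 3.10.9), with at least 1 bp of overlap for classes and marks. Genes and annotation came from GENCODE 44 lifted to GRCh37, and sequence from GRCh37. Shares have Wilson 95% intervals. Differences between kept and lost regions were also averaged over 10 vehicle score deciles, weighted by the number of regions compared in each. Those numbers were near equal for the whole vehicle list but not for subsets of it. Kept shares in groups were weighted to the decile makeup of the vehicle list. The code was tested on simulated intervals with known classes. Motifs were searched within 100 bp of each centre, in windows 2 kb away and in accessible regions without FOXA2.

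Named genes and regions followed a rule: the 3 highest-scoring regions of each class outside shared places, vehicle regions within 50 kb of the ChIP-qPCR genes, the 2 genes of each list with the most vehicle and the most kept regions, the 8 genes with the most lost and no kept region, the 8 with the most kept, the 4 with the most new, and the 3 kept regions that gained and the 3 that dropped most in rank. Other genes and regions were named after their values were seen. The members and the gene lists were chosen with earlier results of these data known. Alternatives were an overlap of 50%, a score of at least 30, equal list sizes, removal of shared places, the further FOXA2 ChIPs, a wider motif window, fewer motif words and other gene distances. A gene, the list that holds it and a sequence are not reported here.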

Additional observations from a re-analysis of the deposited data

How the results depend on the processing

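Each alternative kept the direction of its result, except that the standardised difference at promoters, 0.39 points with an interval spanning 0, was −0.07 points (−1.03 to 0.89) with promoters drawn to 2500 bp. With an overlap of 50% of both regions the kept share was 28.3%, the new share 18.5% and the standardised forkhead difference −12.98 points. Without shared places the log2 ratio of list sizes was −1.57, the kept share 28.5%, and the standardised differences were 14.96 points for H3K27ac, 25.7 for JUN, 17.6 for FOSL1 and −12.3 for the forkhead motif. When regions scoring under 30 were dropped, the log2 ratio was −1.59 and the new share 10.7%. When the vehicle list was cut to its highest-scoring 8352 regions, the kept share was 61.2%. When either further FOXA2 ChIP served as the control, the new share was 19.6% and 20.2%. Where a mark had to cover 50% of the FOXA2 region, the differences were 4.66 points for ATAC, 21.6 for H3K27ac and 20.1 for FOSL1. The forkhead difference was −11.5 points in windows of 250 bp on either side and −5.93 for TGTTTAC and TGTTTGC alone. The cause of these shifts was not tested. Under these and the remaining alternatives of this kind, 48 values stayed within the counting interval and 19 left it.

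Of the values under alternatives chosen after seeing the data, 10 left the interval and 3 did not. Among regions in both further FOXA2 ChIPs the differences were 7.18 points for ATAC, 21.7 for H3K27ac, 24.2 for JUN, 9.43 for FOSL1, −8.02 for the forkhead motif and −0.38 for the AP-1 motif. In deciles 6 to 10 they were 22.6 for JUN, 13.1 for FOSL1, −8.15 for the forkhead motif and −2.21 for the AP-1 motif. No paired analysis was possible because each group is 1 list with no test. The lists give no signal below the caller's threshold, so signal at lost places was not measured. Near the overlap limit, 100 lost regions had a C12 region within 500 bp, and 7 kept regions overlapped by under 50 bp (13 bp at the least).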
